A study of Mus musculus with 6 samples.

Results

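The mitochondrial ribosome, or mitoribosome, is the machine that translates the messenger RNAs of the mitochondrial genome inside the organelle. Its RNAs are transcribed from mitochondrial DNA, while all of its proteins are encoded in the nucleus, made in the cytosol and imported. Their genes carry the symbols Mrpl for the large subunit, which joins amino acids and holds the exit tunnel, and Mrps for the small subunit, which reads the messenger. Part of the set descends from bacterial ribosomal proteins and part exists only in mitochondria. The products of mitochondrial translation are all core subunits of the respiratory chain and ATP synthase, and inherited defects of several mitoribosomal proteins cause cardiomyopathy in humans.

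The genes described here are the protein-coding genes of the deposited count table whose symbol begins with Mrpl or Mrps followed by a digit. They number 77 among the 30323 gene IDs in the table, with 48 Mrpl and 29 Mrps genes on 17 chromosomes. All 77 had enough counts to be tested. Mrpl33 also matches the rule by name and was not analysed here. The 5 pseudogene rows named after a member are not members.

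The samples are entire hearts of mouse embryos taken at embryonic day 9.5, when the looped heart tube is beating and its chamber muscle begins to form inner ridges. The MCKO group comes from embryos with a knockout of Cdc42 in the myocardium, the genotype being given as CDC-42 KO, and the control group is labelled C57BL/6. Cdc42 encodes a small GTPase that organises the actin cytoskeleton and cell polarity. Each group has 3 libraries, the promoter that drives the deletion is not given in the labels, and other cells of the heart keep their own Cdc42. The libraries held 23883877 to 34246477 estimated counts in MCKO hearts and 19256840 to 32169289 in control hearts. CPM are counts relative to these totals, and 3 counts, the limit that a count of 0 allows, correspond to 0.0876 to 0.156 CPM by counting error alone. Cdc42 itself was measured at 247.6, 240.8 and 238.5 CPM in MCKO hearts, against 398.8, 377.3 and 423.7 CPM in control hearts. The fold change on the log2 scale was -0.66 (SE 0.0466, adjusted p = 2.93e-06 by the edgeR quasi-likelihood test). Fold changes are MCKO over control throughout, and a gene was called at a Benjamini-Hochberg adjusted p under 0.05 over the 14697 genes tested. The p-values measure the spread between these libraries, which may be technical, since no label links a library to its own litter or heart.

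Transcripts of the mitoribosome were mostly lower in MCKO hearts across both subunits, by modest amounts that varied between members. Of the 77 members, 54 (70.1%) were called lower and 3 were called higher by the edgeR test. Over all genes tested, 29.1% were called lower and 29.3% higher, 58.4% in all. The 20 members that were not called had log2 fold changes below 0 in 17 cases and above 0 in 3. The median log2 fold change of the members was -0.27, with quartiles at -0.41 and -0.18, while the median over all genes tested was 0.00.

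The amount by which single members fell was small. No called member changed by a factor of 2 or more, and 11 of the 77 were called lower by over 0.5 on the log2 scale, a threshold that 11.5% of all genes passed. In 60 members every MCKO library lay below every control library, which was the case for 37.2% of all genes tested. In 3 members every MCKO library lay above every control library, against 28.3% of all genes, and in the remaining 14 the groups overlapped. In RNA from whole hearts, fewer cells of a type and less RNA per cell cannot be told apart.

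**Figure D1:**
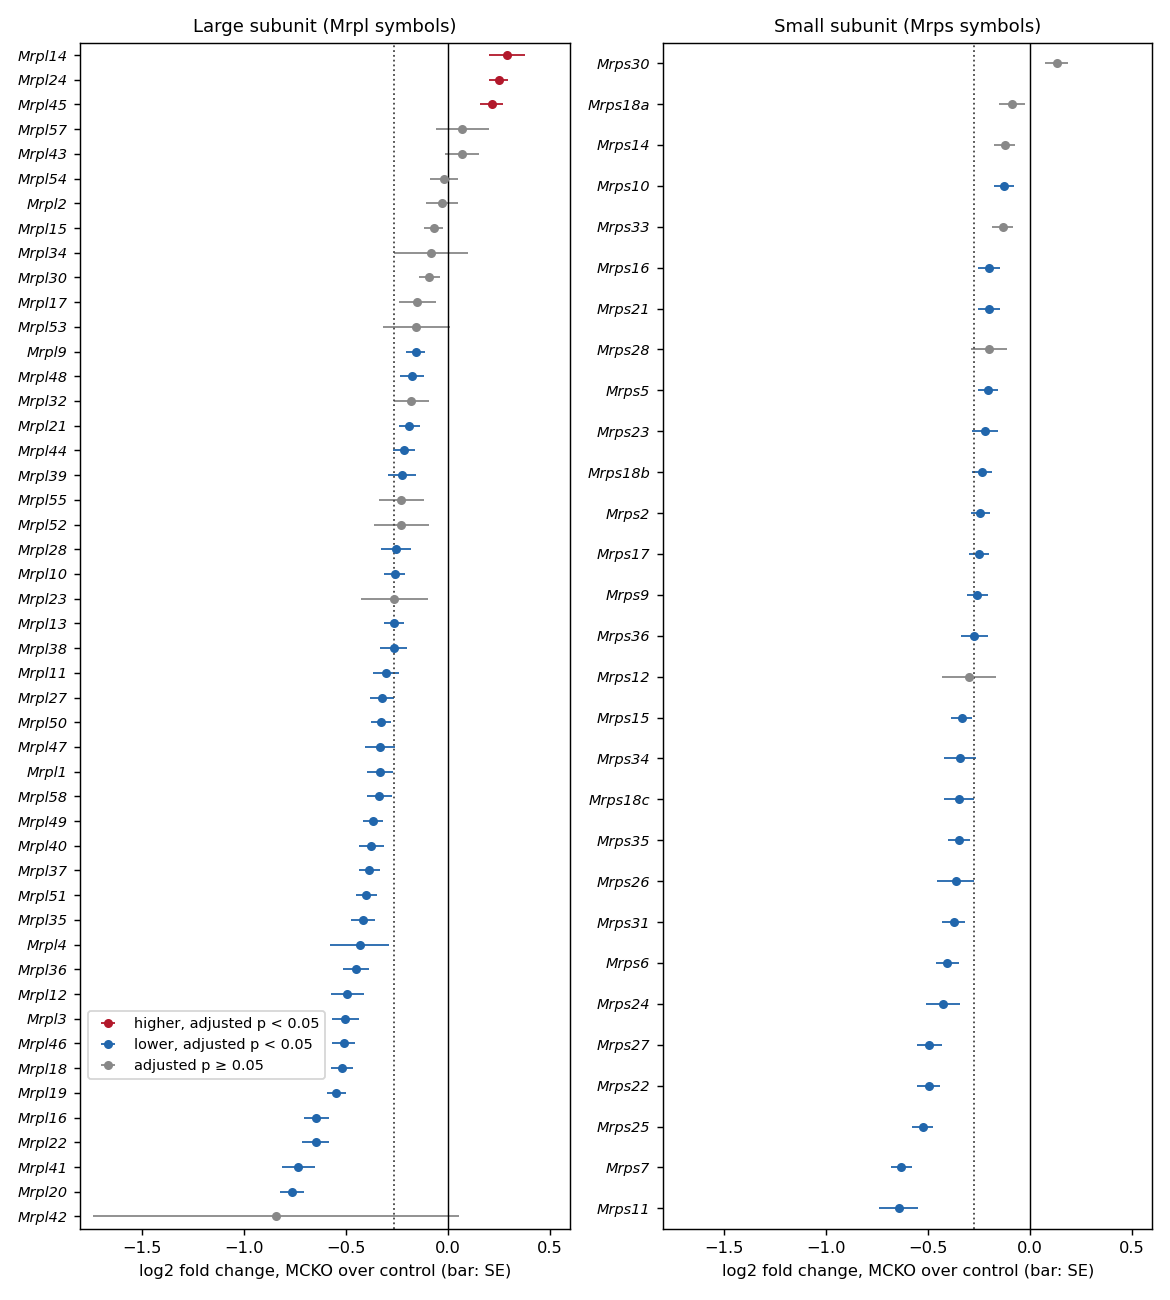
Log2 fold change (MCKO over control, x axis) of each large subunit gene (left, 48 genes) and small subunit gene (right, 29 genes), with bars of 1 SE. Blue points were called lower, red points higher and grey points not called at an adjusted p of 0.05 in edgeR, and the dotted line marks the median of each panel. Nearly all points lie left of 0, and the 3 red points, Mrpl14, Mrpl24 and Mrpl45, are all large subunit genes.

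The summed level gives the same picture per library. The 77 members together held 2495.2, 2507.8 and 2590.5 CPM in MCKO hearts, against 3234.6, 3284.0 and 3103.1 CPM in control hearts. The groups did not overlap, and the mean was 2531.2 ± 51.8 CPM in MCKO hearts and 3207.2 ± 93.5 CPM in control hearts (SD, n = 3 each), or 78.9% of control. These sums are shares of the library total, whereas the log2 fold changes are scaled by edgeR's TMM factors, which place them 0.062 higher than scaling by library totals would.

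The small and the large subunit stood lower by similar amounts. Large subunit genes summed to 1615.9, 1636.0 and 1675.9 CPM in MCKO hearts, against 2096.9, 2129.4 and 1986.4 CPM in control hearts. Small subunit genes summed to 879.3, 871.8 and 914.6 CPM in MCKO hearts, against 1137.7, 1154.6 and 1116.6 CPM in control hearts. Large subunit RNA thus stood at 79.3% and small subunit RNA at 78.2% of its control mean. The ratio of the small to the large sum was 0.544, 0.533 and 0.546 in MCKO libraries and 0.543, 0.542 and 0.562 in control libraries, so the groups overlapped.

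Counted gene by gene, 31 of 48 large subunit genes (64.6%) were called lower and 3 higher, and 23 of 29 small subunit genes (79.3%) were called lower and 0 higher. DESeq2 also called 0 small subunit genes higher, and 1, Mrps30, was higher at an unadjusted p under 0.05 in edgeR. The median log2 fold change was -0.27 in both, and the median of the small subunit minus that of the large was -0.01. That difference ranged from -0.04 to 0.05 when each library was left out in turn, so its sign depended on which libraries were used. All 3 called rises were in the large subunit. Among all genes tested, 29.1% were called lower and 29.3% higher.

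**Figure D2:**
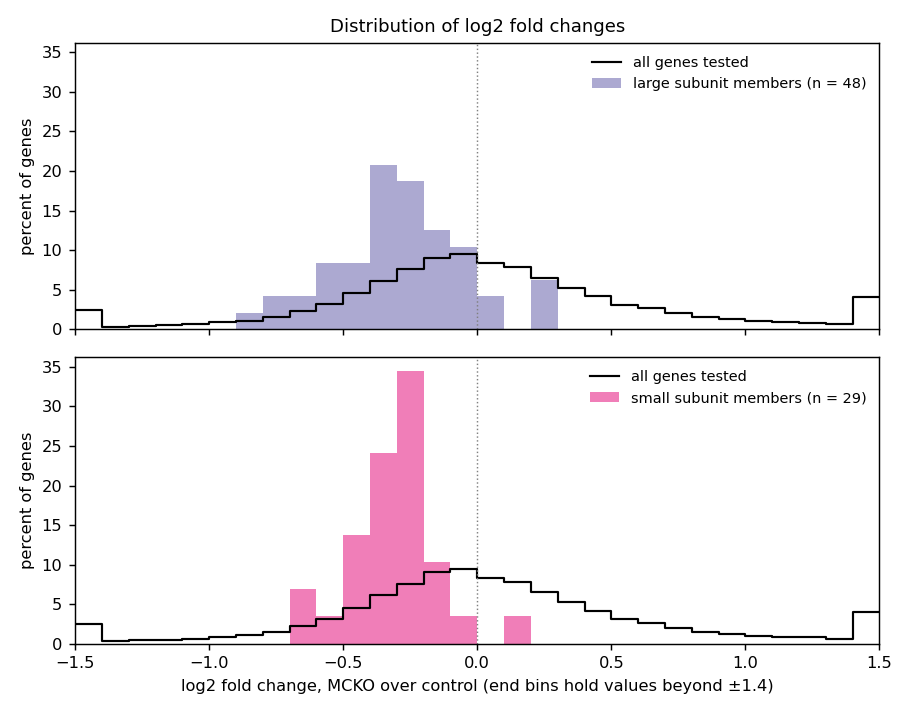
Share of genes (percent, y axis) by log2 fold change (MCKO over control, x axis, bins of 0.1, end bins holding all values beyond) for the 48 large subunit genes (top) and 29 small subunit genes (bottom). The black line shows all genes tested, centred near 0, and both subunits are shifted left of it with medians of -0.27.

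Symbols do not always name the subunit in which a protein sits. In solved mammalian structures Mrps30 and Mrps18a lie in the large subunit, and Mrps36 is now known as a component of the 2-oxoglutarate dehydrogenase complex and is not part of the ribosome. Mrps30 had a log2 fold change of 0.13 (adjusted p = 0.0712) and Mrps18a one of -0.09 (adjusted p = 0.256), so neither was called. With these genes moved, 22 of 26 small subunit genes were called lower, with a median of -0.32. Of the large subunit genes, 31 of 50 were called lower, with a median of -0.26. Over all genes tested, 29.1% were called lower. Mitoribosomal proteins that carry other symbols, such as Dap3 and Ptcd3 of the small subunit, are left out of both sets. The difference of the medians, -0.06, stayed below 0 when any 1 library was left out, between -0.05 and -0.02. No test of it was made.

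Mrps36 itself moved like the ribosomal genes. It was measured at 26.13, 25.4 and 29.35 CPM in MCKO hearts, against 33.8, 33.23 and 34.82 CPM in control hearts. Its 3 MCKO values lay below all control values (log2 fold change -0.27, adjusted p = 0.00602 in edgeR).

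Transcripts for proteins inherited from bacteria and for those particular to mitochondria were more often called lower than higher. Among all genes tested the shares were 29.1% lower and 29.3% higher. Of 45 genes with a bacterial homologue, 32 were called lower and 2 higher, with a median log2 fold change of -0.26. Of 31 genes for mitochondria-specific proteins, 21 were called lower and 1 higher, with a median of -0.33. Mrps18a and Mrps18b were counted as mitochondria-specific, although they are paralogues of Mrps18c, which was counted with the bacterial homologues. Within the structural small subunit the medians were -0.25 over 16 genes with a bacterial homologue and -0.36 over 10 mitochondria-specific genes. Within the large subunit the order was the opposite, at -0.26 over 29 genes and -0.23 over 21 genes.

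The levels of the members, compared per kilobase of transcript, spanned a wide range. The mean over the 6 libraries ran from 1.17 to 87.7 CPM per kilobase, with a median of 26.0. Mrps21 was highest at 87.7, followed by the stalk protein Mrpl12 at 86.8 and by Mrpl18 at 66.4, and Mrpl42 was lowest. Over the 77 genes the log2 fold change had a Spearman correlation of 0.10 with that level, 0.01 with transcript length and -0.01 with the GC content of the transcript. These correlations are across genes of the same libraries and are given as a description.

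Among large subunit proteins, the strongest called fall was that of Mrpl20, the homologue of a bacterial protein that binds the large ribosomal RNA early in assembly. Mrpl20 (ENSMUSG00000029066, chromosome 4, 155802878 to 155809975, plus strand, GRCm38) was measured at 22.92, 23.61 and 23.28 CPM in MCKO hearts, against 42.51, 42.43 and 38.61 CPM in control hearts. The MCKO values lay close together and far below all control values. The mean was 56.5% of control, a log2 fold change of -0.76 (SE 0.0594, edgeR adjusted p = 5.8e-06).

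Mrpl41, a mitochondria-specific protein of the large subunit, fell nearly as much. It was measured at 15.04, 15.05 and 16.83 CPM in MCKO hearts, against 27.72, 28.87 and 24.84 CPM in control hearts (log2 fold change -0.73, SE 0.0805, edgeR adjusted p = 5.03e-05). Mrpl22, a protein of the exit tunnel through which the new chain leaves, stood at 13.99, 13.88 and 14.15 CPM in MCKO hearts, against 24.42, 21.71 and 22.44 CPM in control hearts. Its log2 fold change was -0.65. Mrpl16, whose bacterial relative lies near the sites where transfer RNA binds, had 26.25, 25.79 and 27.01 CPM in MCKO hearts, against 42.69, 45.75 and 40.69 CPM in control hearts. In all of these genes the groups were well separated.

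Mrpl19, which has a bacterial homologue at the interface between the subunits, was at 41.96, 40.41 and 39.48 CPM in MCKO hearts, against 61.56, 61.07 and 63.07 CPM in control hearts. Mrpl18, whose bacterial relative binds a short ribosomal RNA that the mammalian mitoribosome lacks, was at 62.87, 65.96 and 66.03 CPM in MCKO hearts, against 101.8, 97.58 and 91.7 CPM in control hearts. Their log2 fold changes were -0.55 and -0.52. Every MCKO library lay below every control library in both genes.

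The stalk of the large subunit recruits the translation factors, and Mrpl10, Mrpl11 and Mrpl12 form it. All 3 were called lower, with log2 fold changes of -0.26, -0.30 and -0.49. Mrpl12, which also binds the mitochondrial RNA polymerase in human cells, was measured at 88.65, 94.08 and 94.88 CPM in MCKO hearts, against 135.3, 151.2 and 121.1 CPM in control hearts. The control libraries were spread more widely than the MCKO libraries, and the groups did not overlap (edgeR adjusted p = 0.000739).

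Among proteins of the central protuberance, the crest of the large subunit, Mrpl38, Mrpl40, Mrpl46 and Mrpl48 were called lower, with log2 fold changes of -0.27, -0.37, -0.51 and -0.17. Mrpl52 and Mrpl55 of the same region were not called, at -0.23 each (adjusted p = 0.183 and 0.103). The call of Mrpl48 was lost without MCKO replicate 2 (adjusted p = 0.108), MCKO replicate 3 (0.104) or control replicate 1 (0.128). Mrpl46 was measured at 18.34, 18.9 and 18.72 CPM in MCKO hearts, against 26.5, 28.56 and 28.13 CPM in control hearts. Mrpl58, a peptidyl-tRNA hydrolase that is both a ribosomal subunit and a rescue factor for stalled ribosomes, fell by 0.33 on the log2 scale. Mrpl44, an RNase III-like protein, fell by 0.21.

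Human mutations in MRPL3 and MRPL44 cause infantile cardiomyopathy. Mouse Mrpl3 was measured at 42.81, 39.4 and 40.66 CPM in MCKO hearts, against 54.89, 63.98 and 62.89 CPM in control hearts. Mrpl44 was at 25.26, 26.84 and 25.41 CPM in MCKO hearts, against 31.35, 30.64 and 31.68 CPM in control hearts. Neither gene's groups overlapped, and the log2 fold changes of -0.50 and -0.21 had edgeR adjusted p-values of 0.000187 and 0.00686.

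The 3 genes that rose, Mrpl14, Mrpl24 and Mrpl45, encode large subunit proteins with separate places. Mrpl14 lies at the face that joins the small subunit and contacts the assembly factor Malsu1. It was measured at 21.75, 21.39 and 22.15 CPM in MCKO hearts, against 19.09, 20.56 and 16.23 CPM in control hearts. The lowest MCKO library was only just above the highest control library, and the log2 fold change of 0.29 had an edgeR adjusted p of 0.0174. Without MCKO replicate 3 the log2 fold change was 0.28 with an SE of 0.106 and an adjusted p of 0.0582, so the gene was not called in that smaller fit.

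Mrpl24, at the exit tunnel, was measured at 73.47, 68.92 and 69.54 CPM in MCKO hearts, against 63.11, 60.39 and 62.54 CPM in control hearts. Mrpl45, which ties the ribosome to the inner membrane next to the tunnel exit, was at 73.12, 73.97 and 71.05 CPM in MCKO hearts, against 69.56, 60.39 and 65.87 CPM in control hearts. Their MCKO libraries were above all control libraries, with log2 fold changes of 0.25 and 0.22 (edgeR adjusted p = 0.00126 and 0.00793). For Mrpl45 the lowest MCKO value, 71.05 CPM, was only just above the highest control value, 69.56 CPM.

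Members with the smallest change were also large subunit genes. Mrpl54 was at 35.95, 35.82 and 37.68 CPM in MCKO hearts, against 40.47, 40.25 and 35.0 CPM in control hearts, with overlapping groups and a log2 fold change of -0.02. Mrpl2, the homologue of a bacterial protein near the peptidyl transferase centre, had a log2 fold change of -0.03, and Mrpl15 one of -0.07. None of the 3 was called.

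In the small subunit, Mrps11 and Mrps7 fell most. Mrps11, a protein of the platform by bacterial homology, was measured at 13.81, 14.43 and 16.25 CPM in MCKO hearts, against 23.42, 27.11 and 22.13 CPM in control hearts (log2 fold change -0.64, SE 0.0959, edgeR adjusted p = 0.000349). Mrps7, which by homology nucleates the head of the small subunit, was at 39.57, 40.41 and 38.18 CPM in MCKO hearts, against 61.22, 66.26 and 63.69 CPM in control hearts. It fell by 0.63 on the log2 scale (SE 0.0506, edgeR adjusted p = 6.81e-06). Every MCKO library lay below every control library in both genes.

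Mutations of human MRPS22, MRPS16 and MRPS34 cause mitochondrial disease of infancy. Mouse Mrps22 was measured at 23.48, 21.74 and 23.03 CPM in MCKO hearts, against 33.91, 34.01 and 32.7 CPM in control hearts. It fell by 0.50 on the log2 scale (edgeR adjusted p = 6.43e-05), while Mrps16 fell by 0.20 and Mrps34 by 0.34. Without MCKO replicate 2, Mrps16 had an adjusted p of 0.0545. The values of Mrps34 carry a limit, because its transcript overlaps Mapk8ip3 on the opposite strand, which rose with a log2 fold change of 0.61. The kit keeps strand, but how strand was used in the quantification is not given in the sources used here. Mrps25, which fell by 0.53, overlaps Nr2c2 in the same way, and Nr2c2 was not called (log2 fold change 0.07).

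Mrps18a, Mrps18b and Mrps18c are paralogues that descend from 1 bacterial protein and occupy different sites. Mrps18c had 18.25, 17.19 and 19.51 CPM in MCKO hearts, against 25.9, 22.75 and 24.09 CPM in control hearts. Mrps18b had 39.74, 37.96 and 38.31 CPM in MCKO hearts, against 46.03, 49.23 and 47.53 CPM in control hearts. Mrps18a, the one placed in the large subunit, had 29.73, 28.82 and 30.44 CPM in MCKO hearts, against 34.72, 33.6 and 30.62 CPM in control hearts. Mrps18c and Mrps18b were called lower (log2 fold changes of -0.35 and -0.24, edgeR adjusted p = 0.00295 and 0.00303), and Mrps18a was not. Differences between the paralogues were not tested.

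Mrps27, an RNA-binding protein of the pentatricopeptide repeat family, fell by 0.50 on the log2 scale. The most abundant member per kilobase, Mrps21, fell by 0.20, a call lost without MCKO replicate 1 (adjusted p = 0.0517) or MCKO replicate 2 (0.0524). Mrps12, whose bacterial relative guards the accuracy of decoding, had a log2 fold change of -0.30 with overlapping groups and was not called (edgeR adjusted p = 0.0836).

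**Figure D3:**
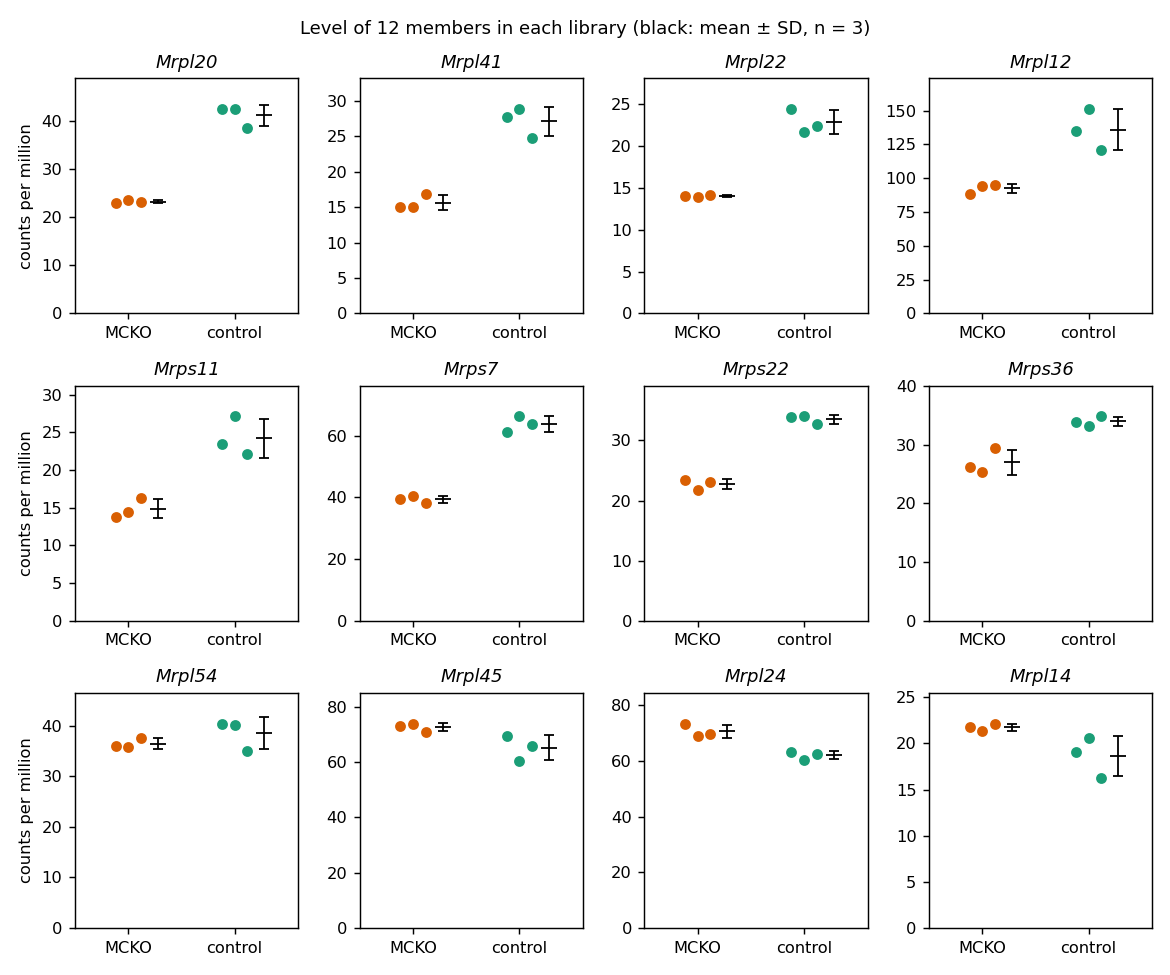
Level of 12 members in each library, in CPM (y axis from 0), with MCKO libraries in orange on the left of each panel and control libraries in green on the right, and the mean ± SD of 3 libraries in black. The upper panels show genes that fell, with all MCKO points below all control points. The bottom row shows Mrpl54, where the groups overlap, and Mrpl45, Mrpl24 and Mrpl14, where the MCKO points are higher.

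A few members are measured poorly. Mrpl42 had only 37, 0 and 11 counts in MCKO libraries, against 42, 21 and 16 in control libraries. The 0 allows up to 0.117 CPM in that library. The log2 fold change of -0.84 was numerically the lowest of all members, with an SE of 0.898, and it was not called. Mrpl23 had 102, 96 and 84 counts in MCKO libraries, against 110, 99 and 117 in control libraries, while 89.4% of the counts of the pair lay on Mrpl23-ps1, a pseudogene with 100% identity over 78% of its transcript. The 2 summed had a log2 fold change of 0.14 (edgeR adjusted p = 0.0977), and the split between them is uncertain. Mrpl53 shares its whole transcript with Gm42688, which held 15.3% of their summed counts.

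Many mitoribosomal genes start close to the start of a gene on the other strand. Overlapping genes were counted too, and whether such genes share a promoter was not tested. A protein-coding gene began within 1000 bases on the opposite strand for 33 of 77 members (42.9%), against 15% of the 14110 protein-coding genes tested. Both genes were tested in 31 of these pairs. For the 23 members that were called lower in such pairs, the neighbour was called lower in 10, higher in 7 and not called in 6, where 29.1% of all genes were called lower and 29.3% higher. Mrps11 and Mrpl46 are each other's neighbour, so their pair is counted from both sides, among the 23 and among the 10.

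The pairs named here were chosen after their values were seen. Pairs in which both genes were called lower included Mrpl37 with Cyb5rl at log2 fold changes of -0.38 and -0.61, and Mrps18c with Helq, a DNA helicase, at -0.35 and -0.50. Pairs called in opposite directions included Mrpl44 with Wdfy1 at -0.21 and 0.70, and Mrpl18 with the chaperonin subunit Tcp1 at -0.52 and 0.24. Mrpl14, the member with the largest rise, lies opposite Tmem63b, which rose with a log2 fold change of 0.68.

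**Figure D4:**
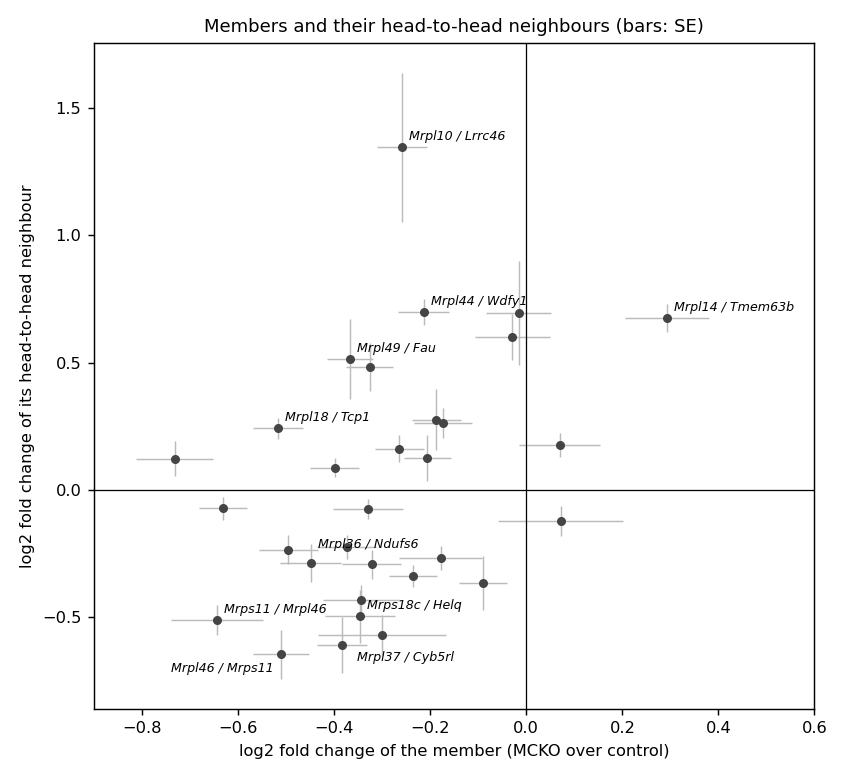
Log2 fold change (MCKO over control) of each member (x axis) and of the gene that starts within 1000 bases of it on the opposite strand (y axis), for 31 pairs, with bars of 1 SE. Most members lie left of 0, while their neighbours lie on both sides of 0. Mrps11 and Mrpl46 are neighbours of each other and appear as 2 points.

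In 1 case both genes of such a pair were members. Mrps11 and Mrpl46 lie back to back on chromosome 7 with RefSeq starts 42 bases apart, and they fell by 0.64 and 0.51 on the log2 scale. In GENCODE release M21 the starts lie 412 bases apart and the gene models overlap there, so reads from the overlap are told apart only by strand. Their shared start region is printed because it is the one place where a large and a small subunit gene are read from the same stretch. It lies at chr7:78782881-78783180 on the plus strand of GRCm38.p6, from RefSeq, and capitals mark the bases from the start of Mrpl46 to that of Mrps11.
Mrps11 and Mrpl46: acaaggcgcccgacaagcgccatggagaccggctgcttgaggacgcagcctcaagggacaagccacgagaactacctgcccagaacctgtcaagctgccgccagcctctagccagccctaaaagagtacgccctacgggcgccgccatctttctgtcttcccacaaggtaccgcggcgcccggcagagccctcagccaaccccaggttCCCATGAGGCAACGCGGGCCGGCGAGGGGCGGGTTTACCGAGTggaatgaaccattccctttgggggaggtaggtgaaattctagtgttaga

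Promoters of nuclear genes for mitochondrial proteins are known for sites of the factors GABP, which binds an ETS motif, and NRF1. RefSeq windows from 250 bases before to 50 after the start were matched for 68 of 77 members. The ETS-type letters CCGGAAG, or CTTCCGG on the other strand, occurred in 23 of the 68 windows (33.8%), against 17.1% of 11010 promoters of tested protein-coding genes. Of the 27 matches, 24 began within 100 bases of the start. They were found in 14 of 48 members called lower and in 9 of 20 others. The palindromic NRF1-type motif occurred in 3 member windows (4.41%), against 1.96% of all. The GC box GGGCGG, or CCGCCC on the other strand, occurred in 34 member windows (50%), against 63.7% of all. A match is a run of letters and not a measured site.

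The promoters of Mrpl22 and Mrpl3, which fell, and of Mrpl14, which rose, are printed to show windows with and without that ETS-type match, which is in capitals. This choice does not reflect the list, where the match was in 14 of 48 members called lower and in 9 of 20 others. The first base of the match lies at -53 in Mrpl22 and at -19 in Mrpl3, counted from the RefSeq start, and Mrpl14 has none. The windows are on the plus strand of GRCm38.p6 at chr11:58171414-58171713 for Mrpl22, chr9:105053018-105053317 for Mrpl3 and chr17:45686099-45686398 for Mrpl14, whose window is 78.0% G and C.
Mrpl22: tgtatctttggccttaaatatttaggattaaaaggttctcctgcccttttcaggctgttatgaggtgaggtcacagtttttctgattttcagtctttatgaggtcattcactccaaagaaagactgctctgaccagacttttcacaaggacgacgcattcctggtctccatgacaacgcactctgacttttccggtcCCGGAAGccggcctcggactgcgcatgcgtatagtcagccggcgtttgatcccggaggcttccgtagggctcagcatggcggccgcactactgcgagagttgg
Mrpl3: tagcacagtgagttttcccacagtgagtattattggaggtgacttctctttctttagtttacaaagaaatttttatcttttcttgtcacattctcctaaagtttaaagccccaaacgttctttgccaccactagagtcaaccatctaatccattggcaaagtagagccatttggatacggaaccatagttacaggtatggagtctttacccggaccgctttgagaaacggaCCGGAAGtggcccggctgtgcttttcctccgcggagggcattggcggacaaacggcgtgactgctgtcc
Mrpl14: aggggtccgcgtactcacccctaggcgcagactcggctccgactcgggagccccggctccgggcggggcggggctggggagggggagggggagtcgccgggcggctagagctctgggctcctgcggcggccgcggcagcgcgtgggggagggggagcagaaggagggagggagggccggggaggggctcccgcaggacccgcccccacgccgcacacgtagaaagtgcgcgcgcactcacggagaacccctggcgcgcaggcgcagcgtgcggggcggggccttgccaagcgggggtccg

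Mitoribosomal proteins that carry other symbols did not move as one. Ptcd3 and Chchd1, both of the small subunit, were called lower at log2 fold changes of -0.44 and -0.30. Dap3, the GTP-binding protein of the small subunit, was called higher at 0.33, with 98.26, 97.27 and 95.13 CPM in MCKO hearts, against 83.75, 75.92 and 81.2 CPM in control hearts. Aurkaip1 and Gadd45gip1 were not called, at 0.09 and 0.07. Without control replicate 2, Aurkaip1 had a log2 fold change of 0.18 with an adjusted p of 0.0295. These genes fall outside the symbol rule.

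Among 25 genes for assembly of the mitoribosome and modification of its RNA, 13 (52%) were called lower and 1, Mterf4, higher, with a median log2 fold change of -0.21. Over all genes tested 29.1% were called lower and 29.3% higher. The call of Mterf4 was lost in 5 of the 6 fits without 1 library, and those of Mtg1 and Ybey in 2 and 5 of them. Fastkd2, needed for the large ribosomal RNA, was at 28.94, 29.05 and 29.39 CPM in MCKO hearts, against 46.58, 44.45 and 48 CPM in control hearts. It fell by 0.61 on the log2 scale, and Trub2, a pseudouridine synthase, fell by 0.47. Rcc1l and the GTPase Noa1, both tied to ribosome assembly, fell by 0.45 and 0.42. Malsu1, the partner of Mrpl14, had a log2 fold change of -0.02 and was not called.

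Of 15 translation factors and partners, 8 (53.3%) were called lower and 0 higher, with a median of -0.24, against 29.1% lower and 29.3% higher over all genes. DESeq2 also called 0 higher, and 1, Mrrf, was higher at an unadjusted p under 0.05 in edgeR. The elongation factor Gfm1, which moves the ribosome along the messenger, was at 83.66, 85.99 and 87.21 CPM in MCKO hearts, against 151.4, 146.6 and 150.5 CPM in control hearts. It fell by 0.74 on the log2 scale (SE 0.0403, edgeR adjusted p = 5.51e-07), about that of Mrpl20 and Mrpl41. Taco1, which activates translation of the mt-Co1 messenger, fell by 0.61, Slirp, which stabilises mitochondrial messengers, by 0.38 and Gfm2, which recycles ribosomes, by 0.31.

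Of 10 genes for copying and transcribing mitochondrial DNA, 4 were called lower and 4 higher, where 29.1% of all genes were called lower and 29.3% higher. With so few genes these counts are near that background. Tfb2m, the initiation factor of the mitochondrial RNA polymerase, fell by 0.37 on the log2 scale. The DNA polymerase subunits Polg and Polg2 rose with log2 fold changes of 0.26 and 0.71, and the helicase Twnk rose with 0.18. The polymerase Polrmt had a log2 fold change of -0.41 whose call was lost without MCKO replicate 1 (adjusted p = 0.0817), MCKO replicate 2 (0.0714) or control replicate 1 (0.0592). The other called genes, Tefm, Tfam and Top1mt, also lost their calls without single libraries, with adjusted p-values of up to 0.174, 0.116 and 0.0872.

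The messengers that mitoribosomes translate stood lower still. The 13 mitochondrially encoded messengers summed to 13785.2, 13194.8 and 13116.0 CPM in MCKO hearts, against 31304.9, 32373.0 and 35499.0 CPM in control hearts, or 40.4% of control. Of the 13, 11 (84.6%) were called lower, against 29.1% of all genes, and the median log2 fold change was -1.24. The log2 fold changes were -1.88 for mt-Nd1, -1.502 for mt-Cytb, -1.47 for mt-Atp6 and -1.25 for mt-Co1. The messengers not called were mt-Co2, with a log2 fold change of 0.01 (adjusted p = 0.972), and mt-Nd3, with one of -0.99 (adjusted p = 0.27), and in both the groups overlapped. For mt-Nd3 the values were 55.13, 57.37 and 39.69 CPM in MCKO hearts, against 47.96, 61.8 and 204.6 CPM in control hearts, with 1 control library far above the rest. The library kit is one for mRNA, and how completely it captured mitochondrial RNA was not measured. Near-identical copies of the mitochondrially encoded messengers were not searched for. The mitochondrial ribosomal RNAs were not analysed here.

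The nuclear genes whose products assemble with those proteins fell less. The 80 nuclear-encoded subunits of complexes I, III, IV and V summed to 11865.6, 12007.7 and 12533.7 CPM in MCKO hearts, against 14304.1, 14832.0 and 13754.6 CPM in control hearts, or 84.9% of control. Of 77 tested, 42 (54.5%) were called lower and 10 (13%) higher, against 29.1% and 29.3% of all genes tested. The median log2 fold change of these subunits was -0.18. The largest rises there were those of Ndufa4l2 and Cox4i2, isoforms known to be induced by low oxygen. Ndufa4l2 was at 51.13, 53.05 and 52.38 CPM in MCKO hearts, against 0.445, 1.09 and 0.964 CPM in control hearts.

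The ribosomal proteins of the cytosol went the other way. Their 82 genes summed to 36794.9, 37108.5 and 38961.1 CPM in MCKO hearts, against 33584.5, 34758.5 and 31288.1 CPM in control hearts, or 113% of control. Of 80 tested, 51 (63.7%) were called higher and 8 (10%) lower, against 29.3% and 29.1% of all genes tested. The median log2 fold change of these genes was 0.23. Rpl13a rose with a log2 fold change of 0.45, while Rpl30 and Rps27l fell by 0.37 and 0.45. Near-identical copies of these genes were not searched for.

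**Figure D5:**
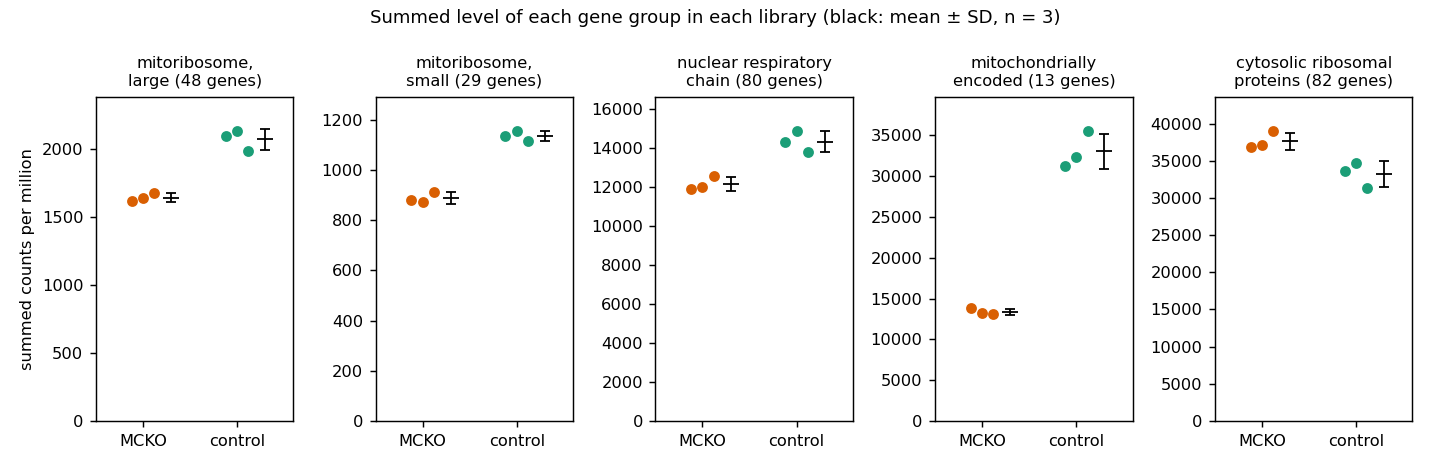
Summed level in each library, in CPM (y axis from 0 in each panel), of the large and small mitoribosomal genes, the nuclear-encoded respiratory chain, the mitochondrially encoded messengers and the cytosolic ribosomal proteins, with MCKO in orange on the left, control in green on the right, and the mean ± SD of 3 libraries in black. The MCKO points lie below the control points in the first 4 panels, most of all for the mitochondrially encoded messengers at 40.4% of control, and above them in the last at 113%.

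Of 11 known regulators of mitochondrial gene expression, 4 (36.4%) were called higher and 3 (27.3%) lower, near the 29.3% and 29.1% of all genes tested, so the counts say nothing particular of the list. Myc, a transcription factor that drives cytosolic ribosome production, was at 33.0, 39.36 and 36.76 CPM in MCKO hearts, against 15.53, 18.33 and 15.29 CPM in control hearts, a log2 fold change of 1.22. Mycn and the coactivator Ppargc1b rose with 0.63 and 0.65. Hif1a, the oxygen-regulated factor, fell by 0.92, and Pprc1, a coactivator related to Ppargc1b, by 0.43. Nrf1, a factor of mitoribosomal promoters, was called lower at -0.18, a call lost without MCKO replicate 1 (adjusted p = 0.0675), MCKO replicate 2 (0.114) or control replicate 2 (0.054). Yy1 was called higher at 0.19 and had an adjusted p of up to 0.137 with single libraries left out. The GABP subunit genes Gabpa and Gabpb1 were not called (-0.13 and 0.04).

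Markers of heart muscle and of other cell types moved between the groups as well. The counts below stand beside 29.1% of all genes called lower and 29.3% called higher. The 8 heart muscle markers summed to 38430 to 39790 CPM in MCKO hearts, against 32080 to 35100 CPM in control hearts, with 4 called higher and 0 lower, by DESeq2 or at an unadjusted p under 0.05 in edgeR likewise 0 lower. The 7 markers of primitive red cells summed to 5946 to 6297 CPM in MCKO hearts, against 2936 to 3134 CPM in control hearts, and all 7 were called higher. The 5 epicardial markers summed to 65.44 to 66.93 CPM in MCKO hearts, against 147.4 to 154.6 CPM in control hearts, with 4 called lower. The 7 endothelial markers summed to 916.3 to 951.0 CPM in MCKO hearts, against 867.5 to 916.8 CPM in control hearts, with 5 called higher and 2 lower, and the 5 markers of endoderm and epithelia to 166.1 to 184.4 CPM in MCKO hearts, against 115.1 to 126.6 CPM in control hearts, with 4 called higher and 1 lower. The 1 marker of endoderm and epithelia called lower had a log2 fold change of -6.62. No marker was at 0 in all libraries, and the part of these marker shifts in the mitoribosomal values was not tested. With the haemoglobin genes left out of the totals, 54 members were called lower and 3 higher. That fit leaves the other RNA of red cells in every value, so it cannot show their part in the member values.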

How the data were processed

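Whole-heart RNA was purified with an Aurum kit and sequenced from strand-specific TruSeq mRNA libraries, per the labels' protocols. Estimated counts for each Ensembl gene ID were deposited by the authors as whole numbers, not scaled for depth or length. Per the submitters' processing notes, kallisto and the mouse build mm10 were used; no source used here states versions, the transcript set, the strand setting or the step from transcripts to genes. The knockout columns read CKO where the sample titles read MCKO and were paired with them by replicate number. Library totals were 34246477, 25712499 and 23883877 counts for MCKO and 26983608, 19256840 and 32169289 counts for control replicates 1 to 3, and 3 counts equal 0.0876 to 0.156 CPM.

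All genes were fitted together with edgeR 4.0.16 in R 4.3.3, using filterByExpr, TMM normalization, robust quasi-likelihood with group as the only term and 2-sided tests. P-values were adjusted by the Benjamini-Hochberg method over 14697 genes, with calls at 0.05. The members and gene lists were chosen with earlier results of these data known. Named are Cdc42, up to 10 called members with the largest change in each direction, the 3 with the smallest, the 3 most abundant per kilobase of each subunit, members with known roles, and up to 4 called genes of each list by smallest p. Other genes named were chosen after their values were seen.

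Lengths and coordinates came from GENCODE M21 on GRCm38, in which 29936 gene IDs were found. Copies were sought with minimap2 2.31-r1302 at 95% identity over 50% of a transcript, and promoters and motifs read from RefSeq windows of 300 bases on GRCm38.p6. Medians and counts of members are descriptions, with no test of the list. Chi-square per degree of freedom between libraries was 3.56 to 15.5 within groups and 90.9 to 147 between them, and all 6 libraries were kept as separate. Libraries with the same replicate number showed no shared deviation from their group means (correlations -0.00472, 0.0216 and -0.13). That cannot exclude that they were handled together, and no label says whether they were. The test was checked on simulated counts. Alternatives were other scalings, filters and thresholds, DESeq2 1.42.0, the replicate block, each library left out, added copies, and omission of haemoglobin or mitochondrially encoded genes.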

Additional observations from a re-analysis of the deposited data

How the results depend on the processing

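Under the 18 alternatives, 44 to 62 members were called lower and 2 or 3 higher. The lowest count was at an adjusted p of 0.01 and the highest under library totals only. The share of all genes called lower moved too, from 29.1% in the main fit to 34.2% under library totals only. It was 19.3% without a filter on low counts, where 51 members were called lower. With 1 library omitted, 46 to 61 members were called lower, against 24.5% to 28.8% of all genes. Of the 54 members called lower, 45 were called in each of the 17 alternatives that kept the threshold, and 0 of the 57 called members changed direction. The other 9 were Mrpl4, Mrpl9, Mrpl28, Mrpl39, Mrpl48, Mrps10, Mrps16, Mrps21 and Mrps23. Among all 77 members, called or not, 6 changed direction in an alternative. Under library totals only, 42.6% of all calls were higher, against 50.2% with TMM, and the median of all genes was -0.06; Mrpl15 was then called at -0.13 and Twnk, at 0.11, was not. The median of the small minus the large subunit, -0.009, was -0.038 to 0.047 with libraries left out and above 0 in 4 of the 6 cases; the cause was not tested. With the replicate block, 49 members were called lower and 3 higher, though whether the numbers pair the libraries is not known. With 1 library omitted, the log2 fold change of Mrpl54 ranged from -0.087 to 0.019, that of Mrpl2 from -0.101 to 0.05 and that of Gadd45gip1 from -0.004 to 0.159, and none of these 3 genes was called in any such fit. Over 62 named genes, 1097 of 1112 values kept direction and call, 8 lost the call, 2 gained it and 5 changed direction. An alternative with all same-strand copies added was chosen after the data were seen and called 54 lower. Counts under about 100 a library, as for Mrpl42, limit what single members show.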

Other observations

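The pseudogene Mrpl48-ps, which is not a member, was measured at 0.175, 0.233 and 0.251 CPM in MCKO hearts, against 1.482, 1.506 and 1.492 CPM in control hearts. On the log2 scale it fell by 2.70 (SE 0.256, edgeR adjusted p = 1.99e-05), while Mrpl48 itself fell by 0.17 on the log2 scale. Mrpl23-ps1, the pseudogene that takes most counts of its pair with Mrpl23, had a log2 fold change of 0.19 (edgeR adjusted p = 0.0464) with overlapping groups, and that call was lost in 4 of the 6 fits that left out 1 library.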
